A study of Rattus norvegicus with 6 samples.

Results

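The genes described here are 58 genes that carry a cell through mitosis, from entry through attachment of chromosomes and building of the spindle to cytokinesis. They were chosen by gene symbol, and where a gene had several probe sets the brightest on average was kept. Of the 58 genes, 50 were matched to a probe set with a single gene symbol, out of 14506 genes tested in all. Ncapg, Ncaph, Cenpe, Cenpf, Spc24, Espl1, Kif18a and Anln were not analysed here.

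The samples were neurospheres, which are floating balls of cells, grown from the dispersed carotid body of adult rats. The carotid body is the oxygen-sensing organ beside the carotid artery, and its glomus cells store and release catecholamines. All cultures ran for 10 days in neural crest medium. The 3 arrays labelled undifferentiated came from spheres in complete medium with FGF, IGF-1, EGF and ET-1 in normoxia. The 3 arrays labelled differentiated came from spheres in the same kind of medium without those mitogens and at 3% O2, so mitogens and oxygen changed together and cannot be told apart. No strain, genotype or exact age is given, and the labels do not say whether the 3 samples of a group came from separate animals or cultures.

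Mitosis is started by the kinase Cdk1 with its A- and B-type cyclins, after which condensin packs the chromosomes. Kinetochores, the protein plates on the centromeres, catch spindle microtubules, and the spindle checkpoint holds back the anaphase-promoting complex until every chromosome is attached. Most of these genes are transcribed in G2 and mitosis and are low in resting cells. The class is known to be held down between divisions by a repressor complex that binds a short promoter element named CHR, often with CCAAT boxes bound by NF-Y nearby.

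The labels were first set against cell type markers. Th, which makes the precursor of dopamine, read 13.76, 13.59 and 13.91 on the arrays labelled undifferentiated and 10.73, 11.32 and 10.65 on those labelled differentiated, on a log2 scale. Every array labelled differentiated was lower, which goes against the label, and so each group is called by its label below. If the labels were exchanged, every direction given here would turn: the 43 rises described below would be falls, and the 2.72-fold of Top2a would read 0.367-fold. Whether they were was not settled here. All 9 glomus cell markers fell, and the mean of their log2 values lay at 10.60 to 10.72 in the group labelled undifferentiated and 7.22 to 7.89 in the other. All 7 fibroblast markers rose (9.89 to 10.31 against 11.29 to 11.37), as did 5 of 7 neural crest and mesenchymal progenitor markers (7.98 to 8.10 against 9.35 to 9.47). The other lists were mixed. Of 8 neuronal markers 1 rose, Nefl (1.21), and 3 fell, with log2 differences of -2.64 for Syp, -2.04 for Snap25 and -1.10 for Elavl3. Tubb3 (-0.002), Stmn2 (-0.05), Elavl4 (-0.06) and Nefm (0.23) did not pass. Among 6 glial markers 1 rose, S100b (0.74), and Mbp fell (-1.97). The 8 markers of pericytes and smooth muscle had 4 rises, Acta2 (0.97), Tagln (1.45), Pdgfrb (1.01) and Cspg4 (0.51), with a fall in Rgs5 (-2.28). None of the 6 endothelial markers rose, and Cldn5 fell (-2.31). The 8 macrophage and leukocyte markers had 2 rises, Tyrobp (1.24) and Cd14 (0.68), with a fall in Cd74 (-2.64). By their mean over the 6 arrays, 4 of the 6 endothelial markers and 1 of the 6 glial markers lay in the lowest 40% of probe sets. For such dim genes a difference could be missed. In whole spheres, a different share of dividing cells and a different amount of RNA per cell cannot be told apart, and the part of the marker changes in the results below was not tested.

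Mitotic genes were higher where the label says differentiated, that is, in spheres described as grown without mitogens. Of the 50 genes, 43 rose, 2 fell and 5 did not pass at an adjusted p of 0.05 (limma, Benjamini-Hochberg over all 14506 genes). Over all genes tested 29.5% passed, 14.7% as rises and 14.9% as falls, whereas 90.0% of these 50 passed and 86.0% rose. The median log2 difference of the 50 was 0.94, with a range of -0.93 to 1.45, and the median over all genes was 0.06. A rise of at least 1, which is a doubling, was reached by 20 of them and by 3.2% of all genes. In 47 of the 50 the 3 arrays of a group lay wholly above or below those of the other, as they did in 42.3% of all genes. An unmoderated equal-variance test, with its spread estimated gene by gene, called 1193 rises and 1547 falls over all 14506 genes. Among the 50 it called 32 rises and 1 fall. The 12 calls it did not make were Stmn1 (adjusted p = 0.0679), Cdc25b (0.0698), Plk4 (0.0698), Melk (0.0612), Cenpa (0.0872), Ska1 (0.104), Mad2l1 (0.13), Ttk (0.0656), Cdc20 (0.072), Aurka (0.08), Kif22 (0.0698) and Kif20b (0.0726).

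**Figure D1:**
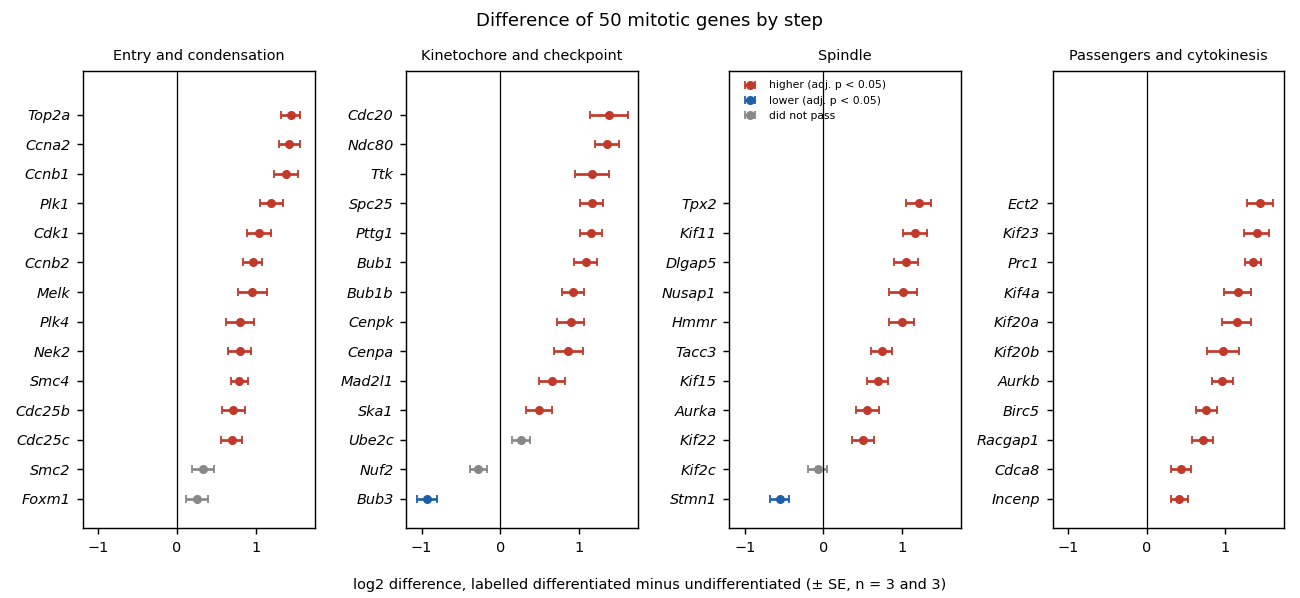
Log2 difference between the arrays labelled differentiated and undifferentiated for each of the 50 measured genes, in 4 panels by step of mitosis; points are fitted differences and bars 1 standard error with 3 arrays a group. All 11 genes of the cytokinesis panel lie right of 0, and Bub3 and Stmn1 are the 2 genes that passed on the left.

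Because the genes moved together, their promoters were searched for the elements named above. RefSeq start sites (GRCr8) were matched for 51 of the 58 genes, taking the first start listed for a gene, and the 250 bases before the start were read. Of the windows that could be checked over all genes, 57.8% placed the annotated gene start directly after these bases. Motif positions therefore depend on the start taken. The letters TTTGAA, the core of the CHR element, stood on either strand in 23 of 51 promoters (45.1%) and in 13.9% of the promoters of all genes tested. CCAAT stood on either strand in 38 of 51 (74.5%) and in 35.6% of all genes tested. Both were found in 21 of 51 (41.2%) against 5.22%, and CCAAT at 2 or more places in 24 of 51 (47.1%) against 11.3%. When the 50 bases after the start were included, TTTGAA was found in 34 of 51 (66.7%) against 15.2%. The motifs overlapped in 1 promoter, that of Cdca8. These counts are descriptions of sequence, and no binding was measured.

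The size of each change was then set beside the motifs. Among measured genes with a promoter, the median log2 difference was 0.97 for the 20 with TTTGAA and 0.93 for the 23 without it. For CCAAT the medians were 1.00 with it (33 genes) and 0.75 without it (10 genes), and neither pair was tested. By step, both motifs stood in 7 of 14 entry promoters, 5 of 17 kinetochore promoters, 3 of 11 spindle promoters and 6 of 9 cytokinesis promoters. With the 50 bases after the start included, the counts were 8 of 14, 8 of 17, 4 of 11 and 7 of 9. Over all steps this longer window held both motifs in 27 of 51 promoters (52.9%), against 6.3% of all genes tested.

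The 120 bases before the start are shown for 6 genes with large rises, chosen to cover entry, the end of the checkpoint and the central spindle, and for the 2 that fell. Capitals mark TTTGAA or CCAAT on either strand, so that TTCAAA and ATTGG are the same motifs read on the other strand. All are written 5′ to 3′ on the strand of the gene.
Top2a: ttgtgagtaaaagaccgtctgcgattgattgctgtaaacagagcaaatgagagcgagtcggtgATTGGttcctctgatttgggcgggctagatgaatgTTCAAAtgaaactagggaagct
Cdk1: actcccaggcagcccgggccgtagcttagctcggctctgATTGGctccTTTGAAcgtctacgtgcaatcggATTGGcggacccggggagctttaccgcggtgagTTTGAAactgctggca
Ccnb1: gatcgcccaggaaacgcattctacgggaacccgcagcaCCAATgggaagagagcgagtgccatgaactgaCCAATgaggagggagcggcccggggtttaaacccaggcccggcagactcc
Cdc20: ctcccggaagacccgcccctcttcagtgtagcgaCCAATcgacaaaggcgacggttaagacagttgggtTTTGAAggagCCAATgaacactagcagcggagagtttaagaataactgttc
Pttg1: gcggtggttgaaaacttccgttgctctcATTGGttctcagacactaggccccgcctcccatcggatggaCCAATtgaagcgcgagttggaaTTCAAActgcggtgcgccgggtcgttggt
Prc1: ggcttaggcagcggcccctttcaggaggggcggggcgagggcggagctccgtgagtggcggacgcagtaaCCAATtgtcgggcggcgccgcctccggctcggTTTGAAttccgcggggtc
Bub3: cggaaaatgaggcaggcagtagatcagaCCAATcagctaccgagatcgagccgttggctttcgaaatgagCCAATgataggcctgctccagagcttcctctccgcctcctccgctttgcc
Stmn1: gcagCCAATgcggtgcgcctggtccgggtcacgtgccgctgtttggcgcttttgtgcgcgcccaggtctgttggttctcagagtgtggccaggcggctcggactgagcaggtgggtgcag

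In GRCr8 these stretches lie at chr10:84473094-84473213 on the minus strand (Top2a), chr20:19265173-19265292 on the plus strand (Cdk1) and chr2:33655226-33655345 on the minus strand (Ccnb1). Cdc20 is at chr5:137255800-137255919 on the minus strand, Pttg1 at chr10:28406327-28406446 on the minus strand and Prc1 at chr1:143659361-143659480 on the plus strand. Bub3 is at chr1:195760412-195760531 and Stmn1 at chr5:151965059-151965178, both on the plus strand. Counted from the start, and within the stretches shown, CCAAT begins at -57 and TTTGAA at -22 in Top2a, at -50 and -18 in Prc1 and, for the pair nearest the start, at -51 and -29 in Pttg1. Cdk1 has a pair at -49 and -16 and another at -81 and -72. Cdc20 has TTTGAA at -51 between CCAAT at -86 and -41, so order and spacing varied among these genes. Ccnb1 has CCAAT at -82 and -50 and TTTGAA nowhere in its 250 bases, so a rise did not go with both exact motifs in every gene. Of the 38 rising genes with a promoter, 18 (47.4%) had both motifs in the 250 bases. Neither Bub3 nor Stmn1 has TTTGAA in the 250 bases, and both have CCAAT. Only the exact letters were searched, so near matches, such as tttaaa in Ccnb1 and ttcgaa in Bub3, were not counted.

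Genes of mitotic entry and chromosome condensation rose in 12 of 14 cases and fell in 0, with a median log2 difference of 0.88. Top2a, the topoisomerase that untangles sister chromatids, read 6.28, 6.15 and 6.21 in the group labelled undifferentiated and 7.64, 7.85 and 7.48 in the group labelled differentiated. The groups were far apart, and Top2a rose by 1.45 ± 0.12 (SE), or 2.72-fold (limma adjusted p = 4.01e-06). Ccna2, the cyclin A of S phase and early mitosis, read 5.16, 4.87 and 5.32 against 6.55, 6.53 and 6.55. The 3 arrays labelled differentiated were nearly alike, and Ccna2 rose by 1.43 ± 0.13 (limma adjusted p = 1.4e-05). Ccnb1, the main mitotic cyclin, read 5.77, 5.14 and 5.41 against 6.79, 6.96 and 6.73. Its lowest array was undifferentiated replicate 2, and it rose by 1.39 ± 0.16 (limma adjusted p = 5.42e-05).

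The partners of these cyclins moved the same way by smaller amounts. Cdk1, the mitotic kinase, rose by 1.04 ± 0.15 (SE), and Ccnb2, another B-type cyclin, by 0.96 ± 0.12. Ccnb2 had 2 probe sets, which gave 0.96 each, and Nek2 had 2 probe sets with the same values on every array. The polo kinase Plk1, which acts from entry to cytokinesis, rose by 1.20, and Plk4, which starts centriole duplication, by 0.80. Nek2, a centrosome kinase, rose by 0.80 and the kinase Melk by 0.96. The phosphatases Cdc25b and Cdc25c, which remove the inhibitory phosphates from Cdk1, rose by 0.72 and 0.70.

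The condensin ATPase Smc4 rose by 0.79 ± 0.11 (SE), whereas its partner Smc2 differed by 0.33 ± 0.14 and did not pass (limma adjusted p = 0.108). Smc2 read 7.21, 6.995 and 6.99 against 7.52, 7.60 and 7.07, and differentiated replicate 3 lay among the other group. Without that array the difference was 0.49 and passed (limma adjusted p = 0.0126). With any other single array removed it was 0.23 to 0.40 and did not pass (limma adjusted p from 0.0998 to 0.294). Foxm1, the transcription factor that activates many of these genes in G2, differed by 0.26 ± 0.14 (limma adjusted p = 0.202). Its arrays read 5.32, 5.55 and 5.21 against 5.77, 5.59 and 5.49, and the groups overlapped.

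At the kinetochore and in the checkpoint 11 of 14 genes rose and 1 fell, with a median of 0.91. Ndc80, which binds the microtubule, read 5.15, 4.69 and 5.15 against 6.35, 6.51 and 6.19, and rose by 1.36 ± 0.16 (SE, limma adjusted p = 5.75e-05). Its partner Spc25 read 5.29, 5.17 and 5.15 against 6.33, 6.64 and 6.14, and rose by 1.16 ± 0.14 (limma adjusted p = 9.43e-05). Nuf2, of the same complex, went the other way without passing. Nuf2 read 6.51, 6.52 and 6.32 against 6.15, 6.20 and 6.16, and its groups did not overlap. The difference was -0.28 ± 0.11 (limma adjusted p = 0.0816), and between -0.34 and -0.24 with any single array removed. At the centromere the histone variant Cenpa rose by 0.87 and Cenpk, of the inner kinetochore, by 0.90.

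The checkpoint kinases Bub1 and Ttk rose by 1.09 ± 0.15 and 1.17 ± 0.21 (SE), and Bub1b, the inhibitor of the anaphase-promoting complex also named BubR1, by 0.93 ± 0.14. Mad2l1, the checkpoint protein Mad2, rose by 0.66 ± 0.17 (limma adjusted p = 0.0121), but it did not pass once undifferentiated replicate 2 was removed (adjusted p = 0.056). Bub3, the scaffold that brings Bub1 and Bub1b to the kinetochore, moved against its partners. Bub3 read 7.36, 7.496 and 7.84 in the group labelled undifferentiated and 6.67, 6.57 and 6.65 in the other. It fell by 0.93 ± 0.13, a 1.91-fold difference (limma adjusted p = 0.000209), and the difference stayed between -1.04 and -0.80 with any single array removed. All 3 arrays labelled differentiated lay at least 0.69 below the others.

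Of the genes that release sister chromatids, Cdc20, the activator of the anaphase-promoting complex, read 5.33, 4.94 and 5.07 against 6.32, 7.14 and 6.03. Its arrays labelled differentiated were the most widely spread of these genes (SD 0.57, n = 3), and it rose by 1.38 ± 0.24 (SE, limma adjusted p = 0.00108). Pttg1, the securin that holds separase inactive, read 5.37, 5.34 and 5.29 against 6.33, 6.79 and 6.36, and rose by 1.16 ± 0.14 (limma adjusted p = 9.01e-05). Ube2c, the ubiquitin-conjugating enzyme of the same complex, differed by 0.26 ± 0.11 (limma adjusted p = 0.112). Without undifferentiated replicate 2 it was 0.35 with an adjusted p of 0.04997. With any other single array removed it was 0.18 to 0.31 and did not pass (limma adjusted p from 0.121 to 0.357). Ska1, which helps kinetochores hold microtubules, rose by 0.50 ± 0.16 (limma adjusted p = 0.0388). It read 2.83, 3.16 and 3.02 on the arrays labelled undifferentiated, below their lower quartiles of 3.38, 3.50 and 3.37, so its size is uncertain. Ska1 did not pass when undifferentiated replicate 1 was removed (adjusted p = 0.149), nor when undifferentiated replicate 3 (0.0927), differentiated replicate 2 (0.099) or differentiated replicate 3 (0.117) was. With an unmoderated equal-variance test 6 of the 14 kinetochore genes rose.

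**Figure D2:**
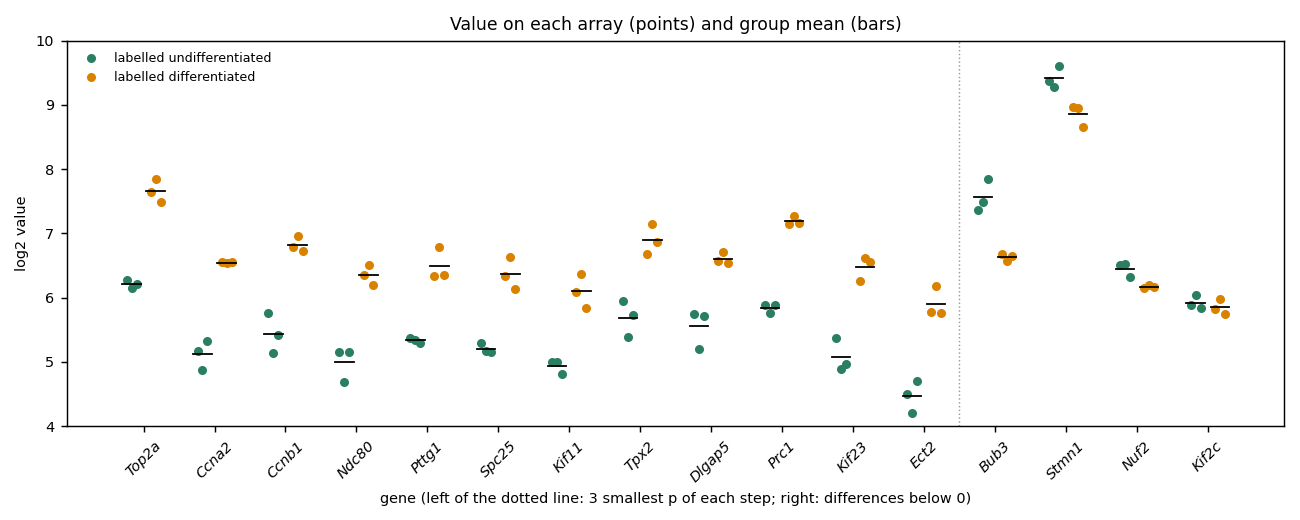
Log2 value on each array (points, 3 a group) and group mean (bars) for the 3 genes with the smallest p in each of the 4 steps, and, right of the dotted line, the 4 genes whose difference was below 0. The groups do not overlap for the 12 genes on the left, where the arrays labelled differentiated are higher; on the right they overlap for Kif2c.

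Of 11 spindle genes 9 rose and 1 fell, with a median of 0.74, the smallest of the 4 steps. Kif11, the motor that pushes spindle poles apart, read 5.0004, 4.99 and 4.81 against 6.09, 6.37 and 5.84, and rose by 1.17 ± 0.15 (SE, limma adjusted p = 0.000135). Tpx2, which activates Aurora A on the spindle, read 5.95, 5.39 and 5.73 against 6.68, 7.14 and 6.87, and rose by 1.21 ± 0.16 (limma adjusted p = 0.000186). Dlgap5, which stabilises kinetochore fibres, read 5.75, 5.20 and 5.71 against 6.56, 6.71 and 6.53, and rose by 1.05 ± 0.15 (limma adjusted p = 0.000332). In these 3 genes differentiated replicate 2 was the highest array.

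Aurka, the Aurora A kinase that Tpx2 activates, rose by 0.56 ± 0.14 (SE, limma adjusted p = 0.0127) and did not pass once differentiated replicate 3 was removed (adjusted p = 0.0524). The microtubule-binding Nusap1 and Hmmr rose by 1.01 and 1.00, Tacc3, which cross-links kinetochore fibres, by 0.74, and the motor Kif15 by 0.69. The chromosome-arm motor Kif22 rose by 0.50 (adjusted p = 0.0178). It did not pass when undifferentiated replicate 1 (adjusted p = 0.0746), undifferentiated replicate 2 (0.0533) or differentiated replicate 1 (0.0679) was removed.

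The 2 spindle genes that did not rise were Stmn1 and Kif2c, both known to destabilise microtubules. Stmn1, stathmin, which sequesters tubulin and is also abundant in neurons, read 9.38, 9.28 and 9.60 against 8.97, 8.95 and 8.66. The groups were 0.31 apart, and Stmn1 fell by 0.56 ± 0.12 (SE, limma adjusted p = 0.00433). Kif2c, a depolymerising motor at the centromere, read 5.88, 6.04 and 5.83 against 5.82, 5.98 and 5.74. The groups overlapped, and the difference was -0.07 ± 0.12 (limma adjusted p = 0.717).

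Every measured gene of the passenger complex, central spindle and cytokinesis rose, 11 of 11, with a median of 0.97. Prc1, which bundles the microtubules of the central spindle, read 5.88, 5.77 and 5.88 against 7.14, 7.27 and 7.17. Its replicates were close, the groups lay 1.26 apart, the widest gap among the 43 rising genes, and it rose by 1.35 ± 0.10 (SE, limma adjusted p = 2.71e-06). Kif23, the motor of centralspindlin, read 5.37, 4.89 and 4.96 against 6.26, 6.62 and 6.55, and rose by 1.40 ± 0.16 (limma adjusted p = 5.02e-05). Ect2, which starts the cleavage furrow, read 4.49, 4.20 and 4.70 against 5.78, 6.18 and 5.77, and rose by 1.44 ± 0.17 (limma adjusted p = 6.91e-05).

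Racgap1, which pairs with Kif23 and recruits Ect2, rose by 0.71 ± 0.13 (SE). The central spindle motors Kif4a, Kif20a and Kif20b rose by 1.16, 1.15 and 0.97. Kif20b read 3.54, 3.29 and 3.27 on the arrays labelled undifferentiated. On replicates 2 and 3 this was below the lower quartiles of 3.50 and 3.37, so the size of its rise is uncertain. In the chromosomal passenger complex the kinase Aurkb rose by 0.96 ± 0.13 and Birc5, survivin, by 0.76 ± 0.13. The scaffold Incenp and borealin, Cdca8, rose by 0.42 ± 0.11 and 0.44 ± 0.12. Whether the subunits of this complex differ from each other was not tested. Cdca8 (limma adjusted p = 0.0198) did not pass when undifferentiated replicate 1 (adjusted p = 0.073), undifferentiated replicate 3 (0.0601) or differentiated replicate 1 (0.0602) was removed.

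The genes also shared an order among the arrays of a group. Differentiated replicate 2 was the highest of its group for 38 of the 50 genes (76.0%) and for 37.7% of all genes tested. Undifferentiated replicate 2 was the lowest of its group for 30 of the 50 (60.0%) and for 39.4% of all genes. The median distance of the 50 genes from their undifferentiated mean was 1.09 on differentiated replicate 2 and 0.88 and 0.87 on replicates 1 and 3. In the same group the mean log2 value of the 8 macrophage and leukocyte markers was 7.96 on replicate 2 and 7.32 and 7.25 on replicates 1 and 3. That of the 9 glomus cell markers was 7.89 against 7.22 and 7.44, and that of the 6 glial markers 6.26 against 6.77 and 6.60. Replicate 2 lay between the others for neuronal (6.82) and fibroblast markers (11.35). It was lowest for progenitor (9.35) and endothelial markers (4.28) and highest for smooth muscle and pericyte markers (7.94). On undifferentiated replicate 2 the macrophage and leukocyte mean was 7.52, between 7.69 and 7.15 on replicates 1 and 3. The glomus cell mean (10.64) also lay between those of the other replicates. That array was the lowest of its group for glial (6.45), progenitor (7.98), fibroblast (9.89) and smooth muscle and pericyte markers (7.55). It was the highest for neuronal (7.35) and endothelial markers (4.69). The part of these cell types in the order was not tested. Without differentiated replicate 2, 42 of the 50 genes rose, 2 fell and the median was 0.87.

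**Figure D3:**
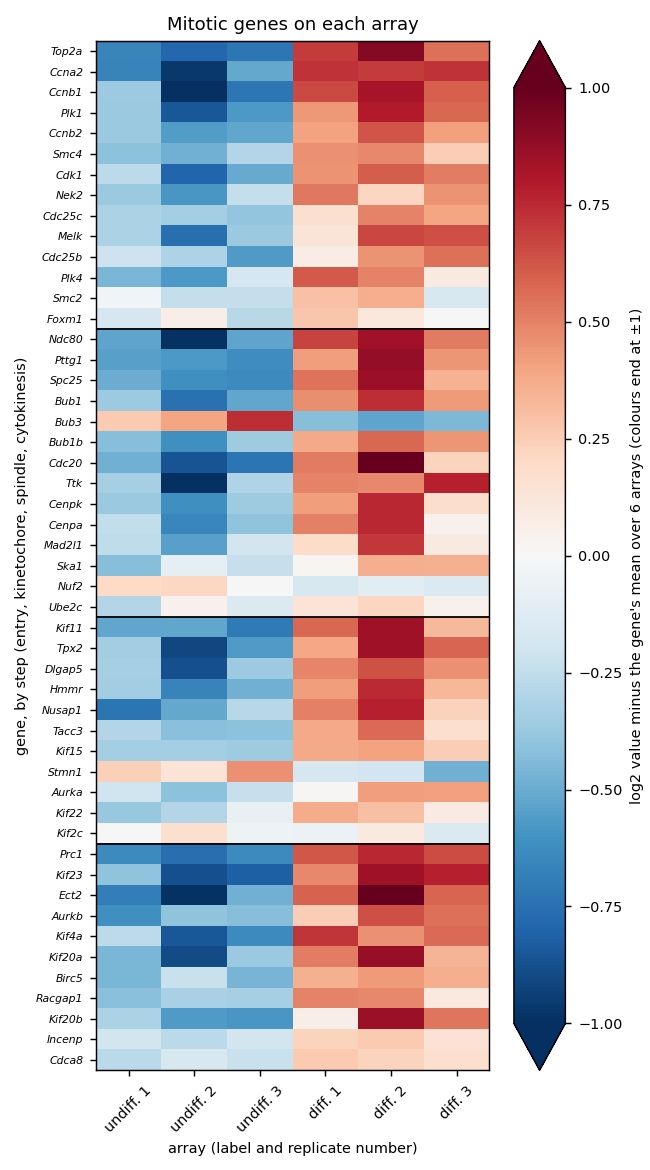
Log2 value of each of the 50 genes on each of the 6 arrays, minus that gene's mean over the arrays (red above, blue below, colours ending at 1), with black lines between the 4 steps. Nearly all rows turn from blue to red between the groups, and Bub3 and Stmn1 turn the other way; differentiated replicate 2 is the highest of its group in 38 of 50 rows.

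Other genes of mitosis were taken from a longer list. Of 135 further genes listed by the same steps, 93 were measured, and 37 of them rose, 5 fell and 51 did not pass, with a median of 0.20. Both lists were chosen with earlier results of these data known, and the difference from the 50 genes above was not tested. The longer list includes subunits, such as those of the anaphase-promoting complex and the augmin complex, that are made throughout the cell cycle. Their part in the lower median was not tested. Among entry genes 7 of 18 rose, led by cyclin F, Ccnf (0.90 ± 0.12, SE), and the Greatwall kinase Mastl (0.98 ± 0.15). The 2 that fell were Ensa, a substrate of Greatwall that inhibits a phosphatase (fell by 0.85), and Lin37, of the complex that represses these genes in resting cells (fell by 0.42).

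Among further kinetochore genes 16 of 34 rose and 2 fell. Ska3, a partner of Ska1, rose by 1.21 ± 0.16 (SE), and Fbxo5, the inhibitor of the anaphase-promoting complex named Emi1, by 1.30 ± 0.19. Zwint, a kinetochore linker also abundant in neurons, fell by 1.44 ± 0.10, from 9.76, 10.01 and 9.95 to 8.49, 8.51 and 8.40. Anapc5, a subunit of the anaphase-promoting complex, fell by 0.75. Of 24 further spindle genes 7 rose and 1 fell. Haus7, of augmin, rose by 1.496 and the minus-end motor Kifc1 by 0.73, whereas Fam83d, which recruits a kinase to the spindle, fell by 2.02 ± 0.18. Of 17 further cytokinesis genes 7 rose and 0 fell, among them Cdca3 (1.36), a trigger of Wee1 degradation.

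DNA replication genes, which act in the preceding S phase, were also counted. Of 43 measured genes 27 rose and 0 fell, with a median of 0.47. Rrm2, of ribonucleotide reductase, rose by 1.76 ± 0.17 (SE) and the helicase subunit Mcm6 by 1.02 ± 0.11. Both lists share the same arrays, and the difference between their medians was not tested.

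**Figure D4:**
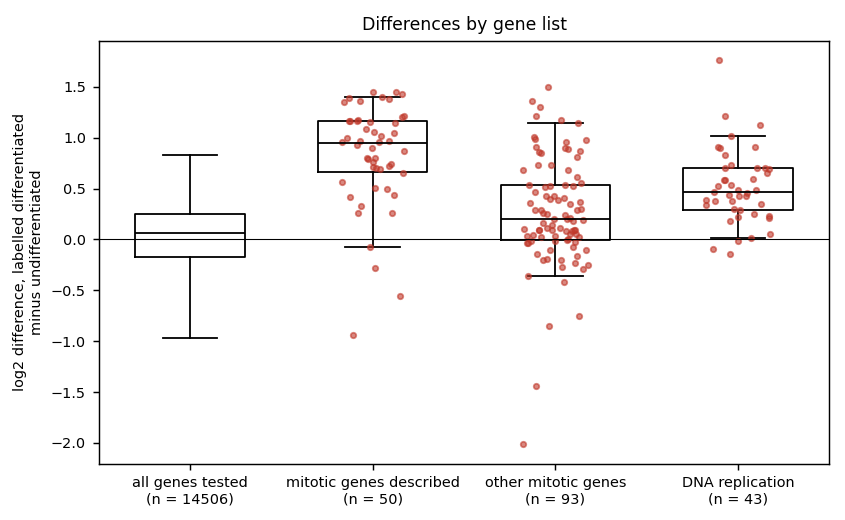
Log2 difference, labelled differentiated minus undifferentiated, for all 14506 genes tested, the 50 mitotic genes described, 93 other mitotic genes and 43 DNA replication genes; boxes span the quartiles with the median as a line, whiskers run from the 5th to the 95th percentile, and points are genes. The medians are 0.06, 0.94, 0.20 and 0.47.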

How the data were processed

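Total RNA (100 ng a sample) was labelled with biotin and measured on 6 Affymetrix arrays, per the labels' protocols. The authors deposited a log2 table of 29214 probe sets by 6 arrays, used as it stands. The base was inferred from the range of the values. How the authors normalized and summarized the arrays is not stated in the labels. Array medians lay between 5.05 and 5.13, and the number of arrays limits the precision. Of the probe sets, 15633 were listed in the platform's probe table, 15310 of them with 1 gene symbol.

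Groups were taken from the sample titles. All 14506 genes entered limma 3.58.1 in R 4.3.3 (lmFit, eBayes with a trend, two-sided, Benjamini-Hochberg at 0.05), with no block. The fit was tested on simulated data. P-values reflect the spread among these arrays alone, and that spread may be technical. The members, the lists and the tests were chosen with earlier results of these data known, so counts of members are descriptions. Values on all arrays are given for the 3 members with the smallest p in each step and for those with a difference below 0. Other members are named with their difference, and Smc2, Foxm1, Cdc20 and Ska1 are given by array as chosen after their values were seen. From each further list the 2 genes with the smallest p in each direction are named, except 1 gene that is not reported here. Alternatives were the block, scaling, dim genes, probe sets, moderation, array weights, thresholds and leaving out each array. Figures used matplotlib 3.10.9 in Python 3.11.15.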

Additional observations from a re-analysis of the deposited data

How the results depend on the processing

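The counts of 43 rises and 2 falls among the mitotic genes were the same with quantile normalization, median centring, other choices of probe set, array weights, and robust or untrended moderation. Only 2 of the 50 genes had more than 1 probe set, so the choice of probe set could change little. When each array was left out, 40 to 42 genes rose, 2 fell and the median was 0.85 to 0.99. With dim genes left out (5 of the 50, in the lowest 40% of probe sets by mean) 38 rose and 2 fell. The 5 were Ska1, Kif20b, Melk, Cenpk and Nusap1. With the replicate number as a block 43 rose and 2 fell. Deviations of same-numbered arrays correlated at 0.12, 0.12 and -0.0038, so the numbers were not taken to pair the arrays. An unmoderated equal-variance test called 1193 rising genes in all, 32 rising mitotic genes (9 entry, 6 kinetochore, 7 spindle and 10 cytokinesis), 1 falling mitotic gene with 0 in the spindle, 18 other mitotic genes that rose and 16 replication genes that rose. A required log2 difference of at least 1 left 20 rises and 0 falls. Over 795 pairs of a gene and an alternative, 769 kept direction and side of the threshold, 24 lost and 2 gained a call, and 0 reversed. How far dim probe sets stood above background is not known here.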
